A study of Mus musculus with 6 samples.

Results

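The 31 genes described here encode the SR proteins and the heterogeneous nuclear ribonucleoproteins (hnRNPs), the main families of RNA-binding proteins that steer splicing. They were chosen by gene symbol alone, as every entry of the expression table whose symbol starts with Srsf and a digit or with Hnrnp. This gave 11 SR genes and 20 hnRNP genes of the 17920 genes listed, and all 31 passed the filter on low counts, as did 13669 genes in all. The RNA came from cells of the mouse cortex at stage E13.5, an embryonic day, that were dissociated, cultured and infected with pLKO.1-Puro lentivirus carrying a short hairpin RNA (shRNA). Puromycin, which kills cells without the virus, was added before the RNA was taken. In the knockdown group (KD, 3 libraries) the hairpin was directed against Ybx1, and in the control group (WT, 3 libraries) it was a control hairpin, so the WT cells also carried a virus and had also been through puromycin. The sample titles use the words WT and KD, whereas the text of the series speaks of a deletion, and which of the study's Ybx1 hairpins these libraries carried is not given in the sources used here. The series text calls the replicates biological and says that sequencing was done in several batches, without saying which library belonged to which batch.

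Splicing is carried out by the spliceosome, and SR proteins and hnRNPs decide, transcript by transcript, which exons it joins. An SR protein carries RNA recognition motifs and a tail rich in arginine and serine, and when bound to an exon it usually promotes that exon's inclusion. The hnRNPs coat nascent transcripts, and many of them repress nearby splice sites, so that the balance between the families sets the choice of many exons. In the developing cortex this choice changes as progenitors become neurons. Ybx1, the protein reduced in the KD cells, is itself an RNA- and DNA-binding protein of the cold shock domain family that reads 5-methylcytosine in mRNA and has been found in spliceosomal complexes.

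Library totals lay between 16294635 and 16497505 estimated counts. Ybx1, the targeted gene, was at 618, 615 and 653 normalised counts (CPM, on a scale of 1000000 per library) in WT replicates 1, 2 and 3 and at 98.3, 92.2 and 159 CPM in KD replicates 1, 2 and 3, so the KD libraries lay far below the WT libraries, and KD replicate 3 kept the most. CPM values are scaled by TMM library sizes and are used below to compare a gene between libraries. TPM values, which are on the same scale and also divide by transcript length, are used wherever levels of different genes are compared. Triplets of values are always given in the order of replicates 1, 2 and 3. The log2 fold changes are KD over WT, each with its standard error (SE), and their P values, from the quasi-likelihood test of edgeR, were adjusted over all 13669 genes by the Benjamini-Hochberg procedure with a threshold of 0.05. In bulk RNA, fewer cells of a type and less RNA per cell cannot be told apart.

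Both families were mostly higher in KD. Of the 11 SR genes, 8 rose, 1 fell (Srsf12) and 2 did not pass the threshold (Srsf5 and Srsf9). Of the 20 hnRNP genes, 13 rose, 3 fell (Hnrnph2, Hnrnpul1 and Hnrnpul2) and 4 did not pass (Hnrnpa3, Hnrnpr, Hnrnpll and Hnrnpa0). Thus 72.7% of the SR genes and 65.0% of the hnRNP genes rose, where 12% of all genes tested did, and 9.09% and 15.0% fell, where 11.9% of all genes did. Well-counted genes pass the threshold more readily, so the shares were also taken over the 6837 genes with a mean of at least 31.0 CPM, the level of the least counted family member, Srsf9. Of these, 15.8% rose and 16.8% fell. That limit was set after the values were seen. The changes were small, between 1.13-fold and 1.29-fold among the 21 genes that rose and between 0.790-fold and 0.852-fold among the 4 that fell.

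**Figure D1:**
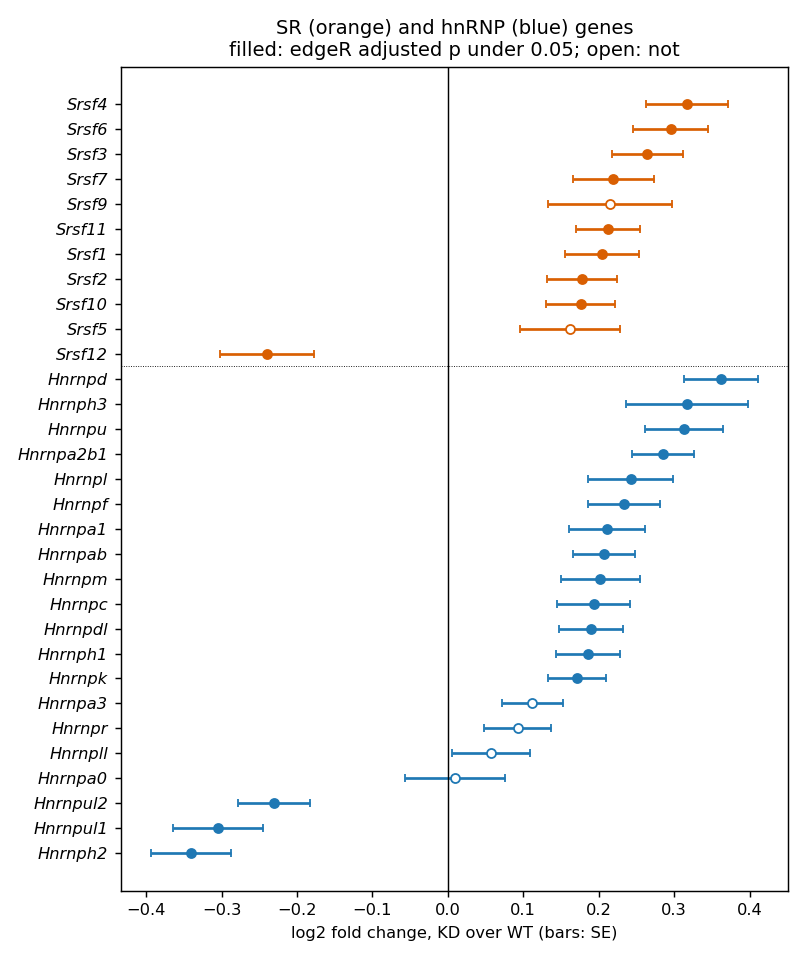
Log2 fold change of each SR gene (orange) and hnRNP gene (blue) in KD over WT on the horizontal axis, with bars for the SE from the fit on 3 WT and 3 KD libraries; filled points passed the edgeR threshold. Most points lie between 0.16 and 0.36, and Srsf12, Hnrnpul2, Hnrnpul1 and Hnrnph2 lie between -0.34 and -0.23.

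The median log2 fold change was 0.21 over the SR genes and 0.19 over the hnRNP genes, beside 0.00 over all genes tested. The family medians differed by 0.02, less than the spread of that difference between libraries (SD 0.03), so the SR and hnRNP families could not be told apart by their median change. When each KD library was set against the WT library of the same number, 10 of 11 SR genes were higher in KD in each of the 3 pairs, and 17, 15 and 17 of the 20 hnRNP genes were. The share of all genes higher in each pair was not taken. In the fit on all libraries, 6795 of all 13669 genes lay above 0. Without any overlap of the groups, 8 SR genes were higher and 1 lower in KD, and 15 hnRNP genes were higher and 3 lower. Over all genes tested, 21.0% were higher and 20.6% lower without overlap.

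How many members passed in the unpaired fit depended on single libraries. Without WT replicate 2, 4 SR and 6 hnRNP genes rose. Without KD replicate 1 the counts were 5 and 8, and without KD replicate 2 they were 7 and 8. The fall of Srsf12 was no longer past the threshold without WT replicate 1, WT replicate 2, KD replicate 1 or KD replicate 2. With the replicate number as a block, which pairs the libraries, 10 SR and 14 hnRNP genes rose, because Srsf5 (adjusted P = 0.0126), Srsf9 (0.0340) and Hnrnpa3 (0.0471) then passed as well, and the calls of the remaining members stayed as they were. Without both libraries numbered 2, which leaves 2 libraries a group, edgeR called 0 members after adjustment. At an unadjusted p of 0.05 it called 21 higher and 4 lower. The share of all genes past that unadjusted p was not taken, so these counts have no background and do not restore the calls. The family medians there were 0.21 and 0.18.

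Among the SR proteins, those named classical share a pair of RNA recognition motifs or a single one before the arginine- and serine-rich tail. The largest rises were in Srsf4 and Srsf6, which encode the relatives with the longest such tails. Srsf4 (chr4:131873530-131901725 in GRCm38.p6, the build of all positions given here) was at 112, 116 and 109 CPM in WT against 149, 137 and 134 CPM in KD (log2 fold change 0.32, SE 0.05, adjusted P = 0.00466). Srsf6 (chr2:162931508-162937121) was at 197, 204 and 218 CPM in WT against 253, 257 and 251 CPM in KD (log2 fold change 0.30, SE 0.05, adjusted P = 0.00432). For both genes every KD library lay above every WT library, by a margin wider than the spread within either group.

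Srsf3 and Srsf7 encode small SR proteins that also serve as adaptors for the export of mRNA from the nucleus. Srsf3 was at 150.4, 147 and 139 CPM in WT against 175, 174 and 175 CPM in KD, with KD libraries closer to each other than the WT libraries were (log2 fold change 0.26, SE 0.05, adjusted P = 0.00532). Srsf7 was at 132, 125 and 137 CPM in WT against 150.0, 148 and 160.2 CPM in KD (log2 fold change 0.22, SE 0.05, adjusted P = 0.0198), and KD replicate 3 was the highest. Srsf1, the founding splicing factor of the family, and Srsf2, a component of nuclear speckles, moved less. Srsf1 was at 234, 229 and 224 CPM in WT against 276, 263 and 253 CPM in KD (log2 fold change 0.20, SE 0.05, adjusted P = 0.0176). Srsf2 was at 172, 175 and 171 CPM in WT against 196, 188 and 202 CPM in KD (log2 fold change 0.18, SE 0.05, adjusted P = 0.0248), and neither gene overlapped between groups.

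Srsf5, a close relative of Srsf4 and Srsf6, was spread over 188, 205 and 221 CPM in WT against 217, 232 and 238 CPM in KD, and KD replicate 1 lay below WT replicate 3. Its log2 fold change of 0.16 (SE 0.07) did not pass the threshold (adjusted P = 0.108). Srsf9, the nearest relative of Srsf1 and the least counted member, was at 27.6, 29.0 and 29.4 CPM in WT against 35.3, 29.4 and 35.2 CPM in KD, where KD replicate 2 lay within the range of the WT libraries. It had a log2 fold change of 0.22 and an SE of 0.08, the widest of the SR genes (adjusted P = 0.0885), and it had a fractional count in each of the 6 libraries, which arises where the counting program divides reads between similar sequences.

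The other SR genes encode proteins with activities outside the classical set. Srsf10 encodes a splicing repressor that is activated by dephosphorylation, and Srsf11 a partner of the neuronal microexon factor Srrm4. Srsf11 was at 240.2, 245 and 252 CPM in WT against 282, 288 and 284 CPM in KD (log2 fold change 0.21, SE 0.04, adjusted P = 0.00874). Srsf10 was at 113, 111 and 112 CPM in WT against 131, 125 and 123 CPM in KD (log2 fold change 0.18, SE 0.05, adjusted P = 0.0256). Srsf12, the nearest relative of Srsf10 and described as an antagonist of other SR proteins, was the only SR gene that was lower. It was at 67.3, 65.9 and 60.9 CPM in WT against 51.8, 55.5 and 57.1 CPM in KD (log2 fold change -0.24, SE 0.06, adjusted P = 0.0246), with all 3 KD libraries below all 3 WT libraries. The gene lies at chr4:33208991-33233343, its annotated exons share no position with another gene, and on log2(TPM + 1) in limma its fall missed the threshold (adjusted P = 0.0540).

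**Figure D2:**
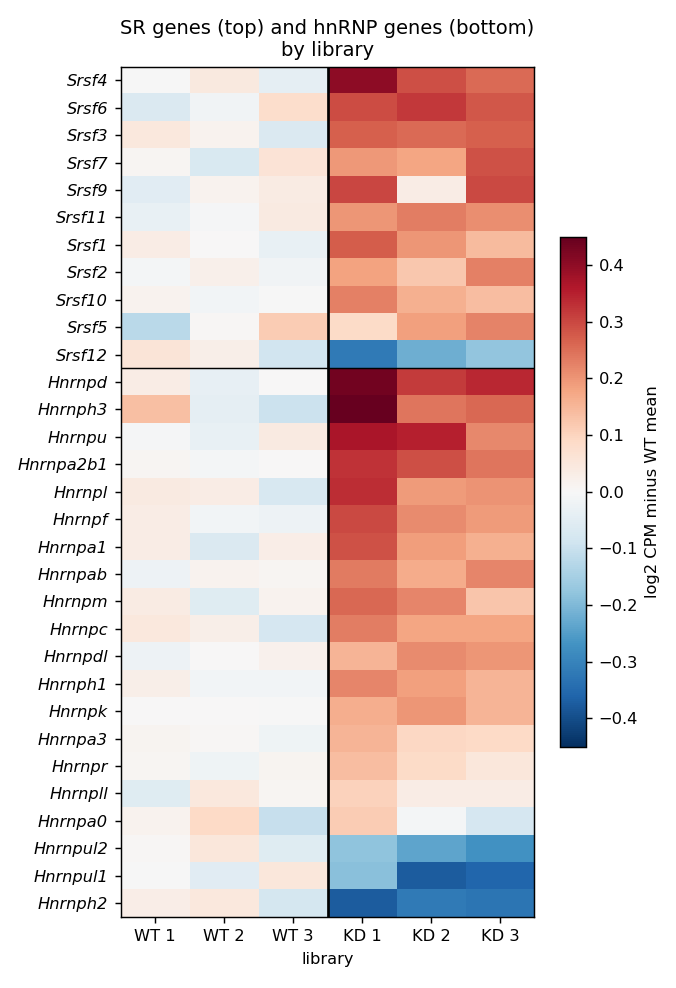
Each tile shows one gene (vertical axis, SR genes above the line and hnRNP genes below it) in one library (horizontal axis, 3 WT then 3 KD), coloured by log2 CPM minus the WT mean. The KD columns are red for most genes and blue for Srsf12, Hnrnpul2, Hnrnpul1 and Hnrnph2, while Hnrnpa0 and Hnrnpll show little difference.

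The hnRNP A/B proteins bind short purine-rich or AU-rich stretches, and hnRNP A1 is the best known opponent of Srsf1 at splice sites. Hnrnpa1, the most abundant hnRNP transcript, was at 649.6, 606 and 647 CPM in WT against 774, 721 and 708 CPM in KD (log2 fold change 0.21, SE 0.05, adjusted P = 0.0179). Hnrnpa2b1, whose product also sorts RNAs for transport, was at 595, 589 and 593 CPM in WT against 742, 725 and 700.3 CPM in KD (log2 fold change 0.29, SE 0.04, adjusted P = 0.00225), a step several times wider than the spread within WT. The related Hnrnpab was at 565, 580.1 and 577 CPM in WT against 675, 644 and 669 CPM in KD (log2 fold change 0.21, SE 0.04, adjusted P = 0.00827). None of these 3 genes overlapped between groups, and KD replicate 1 was the highest library for Hnrnpa1 and Hnrnpa2b1. Their relatives Hnrnpa3 and Hnrnpa0 did not pass. Hnrnpa3 was at 602, 599 and 590.0 CPM in WT against 664, 636 and 636 CPM in KD (log2 fold change 0.11, adjusted P = 0.0760), and the KD values all exceeded the WT values, by little. Hnrnpa0, an intronless gene that encodes a binder of AU-rich elements, was at 179.5, 189 and 165 CPM in WT against 192, 177 and 169 CPM in KD, with overlapping groups and a log2 fold change of 0.01 (adjusted P = 0.933) whose sign turned under upper quartile scaling (-0.01). Leaving out KD replicate 1 also turned it, to -0.04.

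Hnrnpd, also called Auf1, encodes a protein that binds AU-rich elements and speeds the decay of mRNAs that carry them, and it had the largest rise of all 31 members. It was at 200.3, 191 and 196 CPM in WT against 264, 243 and 247 CPM in KD (log2 fold change 0.36, SE 0.05, adjusted P = 0.00176), and the lowest KD library stood well above the highest WT library. The gene lies at chr5:99955935-99979130, and its exons share positions with a gene model on the opposite strand. Its neighbour in sequence and on the chromosome, Hnrnpdl, was at 262, 267 and 270.2 CPM in WT against 296, 309 and 306 CPM in KD (log2 fold change 0.19, SE 0.04, adjusted P = 0.0137), a smaller rise. The counts of Hnrnpdl were fractional in all 6 libraries and those of Hnrnpab in 4.

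Several hnRNPs bind their own kind of pyrimidine- or repeat-rich sequence. Hnrnpc, whose product packages nascent transcripts through uridine tracts, was at 280.1, 276 and 257 CPM in WT against 317, 306 and 306 CPM in KD (log2 fold change 0.19, SE 0.05, adjusted P = 0.0214). Hnrnpk, which encodes a poly(C)-binding protein with KH domains, was at 598, 598 and 597 CPM in WT against 669.7, 685 and 664 CPM in KD (log2 fold change 0.17, SE 0.04, adjusted P = 0.0145), and its WT libraries were nearly identical. Hnrnpl, whose product binds CA repeats, was at 183, 182 and 169 CPM in WT against 224, 203 and 204 CPM in KD (log2 fold change 0.24, SE 0.06, adjusted P = 0.0161). In each case KD replicate 1 or 2 was the highest library and the groups did not overlap. Hnrnpm, which encodes a binder of GU-rich sequence, was at 176, 165 and 173 CPM in WT against 205, 199 and 187 CPM in KD (log2 fold change 0.20, SE 0.05, adjusted P = 0.0237). KD replicate 3 of Hnrnpm was the KD library nearest to WT. Hnrnpll, the relative of Hnrnpl known for the splicing of Cd45 in lymphocytes, was at 76.7, 82.3 and 80.0 CPM in WT against 85.7, 81.5 and 81.5 CPM in KD (log2 fold change 0.06, adjusted P = 0.459). Hnrnpr, which encodes a protein that carries actin mRNA in axons, was at 199.8, 196 and 199.9 CPM in WT against 219, 210.4 and 206 CPM in KD (log2 fold change 0.09, adjusted P = 0.161). The values of Hnrnpll overlapped between the groups, and those of Hnrnpr lay close together without overlap.

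The hnRNP H/F proteins bind runs of guanines, and here close relatives moved in opposite directions. Hnrnph1 was at 339, 330.3 and 329.8 CPM in WT against 388, 378 and 370.2 CPM in KD (log2 fold change 0.19, SE 0.04, adjusted P = 0.0145). Hnrnpf was at 191, 185 and 183 CPM in WT against 229, 216 and 212 CPM in KD (log2 fold change 0.23, SE 0.05, adjusted P = 0.00926). Hnrnph3 was at 68.7, 60.7 and 58.4 CPM in WT against 85.5, 73.8 and 74.7 CPM in KD, with an SE wider than that of most members (log2 fold change 0.32, SE 0.08, adjusted P = 0.0223). All 3 rose, although the counts of Hnrnpf and Hnrnph3 were fractional in all 6 libraries, and WT replicate 1 of Hnrnph3 came near the lowest KD library. Hnrnph2, an X-linked gene (chrX:134601179-134607060) whose protein is nearly the same as that of Hnrnph1, was at 107, 109 and 99.7 CPM in WT against 81.2, 84.5 and 83.9 CPM in KD (log2 fold change -0.34, SE 0.05, adjusted P = 0.00306). This was the largest fall of all members, its KD libraries lay within a narrow range below every WT library, its counts were whole in every library, and its exons overlap no other annotated gene.

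The hnRNP U group binds RNA and chromatin scaffolds. Hnrnpu, which encodes scaffold attachment factor A, was at 434, 426 and 449 CPM in WT against 564, 556 and 507 CPM in KD (log2 fold change 0.31, SE 0.05, adjusted P = 0.00402). Both of its relatives fell. Hnrnpul1 (chr7:25721161-25756268), whose product was first found as a partner of an adenoviral protein, was at 226, 218 and 234 CPM in WT against 198, 174 and 176 CPM in KD (log2 fold change -0.31, SE 0.06, adjusted P = 0.00799), with KD replicate 1 the nearest to WT. Hnrnpul2 (chr19:8819401-8834143), which encodes a protein with a part in the repair of DNA breaks, was at 265, 273 and 254 CPM in WT against 233, 224 and 218 CPM in KD (log2 fold change -0.23, SE 0.05, adjusted P = 0.0102). Neither relative overlapped between the groups, and both had whole counts in every library. The exons of Hnrnpul2 share positions with a gene model on the same strand, whereas those of Hnrnpul1 overlap no other annotated gene.

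**Figure D3:**
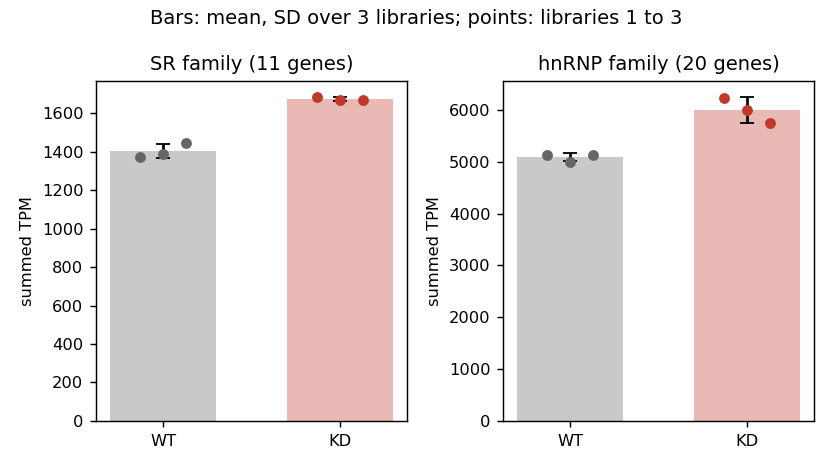
Summed TPM of the 11 SR genes (left) and the 20 hnRNP genes (right) in WT and KD; bars are means, error bars SD over 3 libraries and points the libraries. All KD points lie above all WT points in both panels.

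To ask how the whole output of each family changed, the deposited TPM were summed over its members. The SR genes together stood at 1374, 1391 and 1445 TPM in WT and at 1684, 1669 and 1667 TPM in KD, or 1403 ± 37.0 and 1673 ± 9.17 (SD, n = 3), a ratio of 1.19. The hnRNP genes together stood at 5138, 4996 and 5137 TPM in WT and at 6238, 6007 and 5738 TPM in KD, or 5090 ± 81.6 and 5994 ± 250.2 (SD, n = 3), a ratio of 1.18. Neither sum overlapped between the groups. On log2(TPM + 1) the median change of all genes was 0.05, beside 0.00 in the fit on counts. The TPM sums given here and below include that general shift. A comparison of 3 against 3 libraries cannot give an exact two-sided permutation P below 0.1, so no test was made on the sums. In estimated counts, which the longest and most counted genes dominate, the SR genes made up 0.163% to 0.165% of a WT library and 0.190% to 0.195% of a KD library, and the hnRNP genes 0.603% to 0.619% and 0.673% to 0.722%. The balance between the RNA sums of the families did not differ beyond the spread between libraries. That it was equal was not tested, and protein was not measured. The SR sum divided by the hnRNP sum was 0.267, 0.278 and 0.281 in WT against 0.270, 0.278 and 0.291 in KD, and the groups overlapped.

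Within each family a few genes supplied much of the transcript pool. In WT, Srsf5 was the most abundant SR transcript at 295, 318 and 353 TPM and 22.9% ± 1.5 (SD, n = 3) of the family sum. It was followed by Srsf2 at 174 ± 0.920 TPM and Srsf11 at 155 ± 3.29 TPM, and these steps were wider than the spread. Srsf6, Srsf3 and Srsf7 came next at 126 ± 7.78, 126 ± 4.06 and 125 ± 6.27 TPM, and could not be told apart. At the low end, Srsf9 at 53.4 ± 1.96 TPM stood above Srsf12, which was the lowest in every library at 48.1, 46.4 and 44.0 TPM in WT and 38.6, 41.4 and 41.6 TPM in KD.

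Among the hnRNPs, Hnrnpa1 led in WT at 835, 772 and 845 TPM, or 16.0% ± 0.527 (SD, n = 3) of the family sum, and in KD at 1043, 977 and 933 TPM. Hnrnpa2b1 was next and its share grew from 12.9% ± 0.0940 in WT to 13.8% ± 0.190 in KD (SD, n = 3). Hnrnpll at 57.4 ± 1.92 TPM and Hnrnpd at 58.4 ± 1.99 TPM shared the lowest place in WT without a difference beyond their spread, whereas in KD Hnrnpd was at 78.6 ± 4.26 TPM and Hnrnpll at 61.9 ± 2.4 TPM. The 4 genes that fell also lost share. Hnrnpul1 went from 2.60% ± 0.0660 to 1.86% ± 0.0560 of the hnRNP sum, Hnrnpul2 from 1.90% ± 0.0720 to 1.42% ± 0.00600, Hnrnph2 from 1.90% ± 0.0870 to 1.32% ± 0.0650, and Srsf12 from 3.29% ± 0.232 to 2.42% ± 0.112 of the SR sum.

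The 4 genes that fell are each a less abundant relative of a gene that rose, so the ratio of the relatives was taken within each library, where scaling between libraries cancels. The pairs were picked after the values were seen, and the ratios are a description without a test. Each gene that fell was already lower in KD without overlap, and its relative higher without overlap. The ratios of these pairs thus had to separate, and they are no further evidence of the changes. Hnrnph2 over Hnrnph1 was 0.246, 0.255 and 0.235 in WT and 0.161, 0.171 and 0.174 in KD. Hnrnpul1 over Hnrnpu was 0.775, 0.750 and 0.749 in WT and 0.505, 0.464 and 0.524 in KD. Hnrnpul2 over Hnrnpu was 0.558, 0.587 and 0.518 in WT and 0.378, 0.369 and 0.394 in KD. In every KD library the relative that fell thus made up a smaller part of its pair than in any WT library. Srsf12 over Srsf10 was 0.575, 0.567 and 0.525 in WT and 0.376, 0.419 and 0.440 in KD. The KD mean divided by the WT mean was 0.687 for Hnrnph2 over Hnrnph1, 0.657 and 0.686 for the Hnrnpu pairs and 0.741 for Srsf12 over Srsf10. The pairs of Hnrnpll with Hnrnpl (0.874), Hnrnpa0 with Hnrnpa1 (0.864) and Hnrnpa3 with Hnrnpa2b1 (0.896) moved the same way by less, and Hnrnpd rose against Hnrnpdl (1.15).

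**Figure D4:**
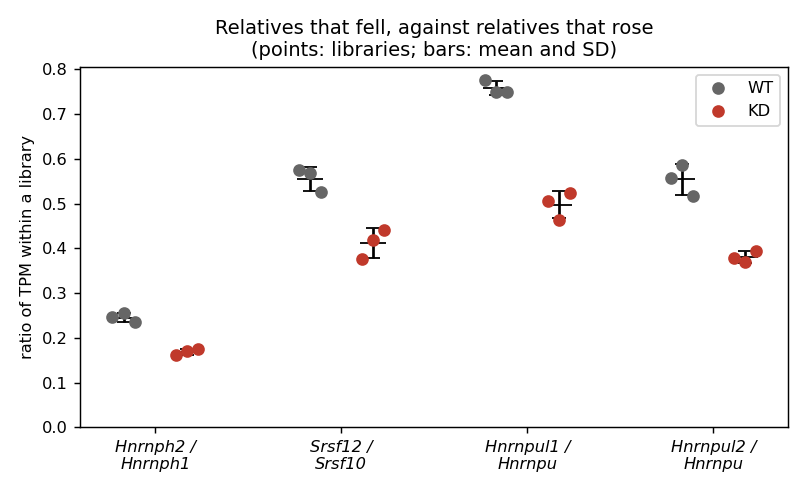
Ratio of the TPM of each gene that fell to the TPM of a relative that rose (vertical axis), for 4 pairs, with points for the 3 WT (grey) and 3 KD (red) libraries and bars for mean and SD. In all 4 pairs the KD points lie below the WT points, as they must for genes that each moved apart without overlap.

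SR and hnRNP genes are known for conserved poison exons and introns, whose inclusion makes a transcript that nonsense-mediated decay removes and by which many of these proteins limit their own amount. The gene-level table does not resolve such transcripts. By the GENCODE M21 annotation of GRCm38, a transcript marked for nonsense-mediated decay is annotated for 9 of 11 SR genes (81.8%) and 10 of 20 hnRNP genes (50.0%), beside 28.0% of all genes tested and 31.0% of those with a mean of at least 31.0 CPM. Such a transcript is annotated for 15 of the 21 members that rose and for 4 of the 6 that did not pass, and for 0 of the 4 that fell. Over all genes at that level, it is annotated for 34.5% of those that rose and 25.0% of those that fell. The members that fell have few annotated transcripts of any kind, 2 for Srsf12 and Hnrnpul2 and 5 for Hnrnpul1 and Hnrnph2. The members that rose have between 3 (Hnrnpab) and 34 (Hnrnpk). The part of transcript number in these counts was not tested. The count estimates of 14 members come from genes whose exons share positions with another annotated gene, 11 of them on the opposite strand, and whether the libraries kept strand is not given in the sources used here.

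Ybx1 takes its name from the Y box, a promoter element that contains CCAAT in the reverse direction. The promoters are shown here because most members moved together, and because Ybx1 is named for this element. The study found Ybx1 protein mostly in the cytoplasm of cultured cortical progenitors, and holds that its role in transcription may be questionable. In the 250 bases before the annotated start (RefSeq, GRCm38.p6), CCAAT was searched on both strands, as CCAAT or ATTGG, and a gene with several starts was counted if any of its windows held a match. A match was found for 13 of the 18 hnRNP genes with a promoter entry (72.2%) and for 3 of 11 SR genes (27.3%), beside 41.0% of the genes tested and 37.5% of all 27025 genes with a promoter. It was found for 11 of the 21 members that rose (52.4%) and for 2 of the 3 that fell and had an entry, with none for Srsf12, beside 44.8% of all genes that rose and 38.3% of all genes that fell. Of the 5 members that did not pass and had an entry, 3 had a match (60.0%), beside 40.9% of all genes that did not pass. The following windows belong to a gene that rose (Hnrnpab), a gene that did not pass (Hnrnpr), a gene that fell (Hnrnpul1) and an SR gene that rose and has no match (Srsf6). They hold no exon of GENCODE M21, are written 5′ to 3′ on the strand of the gene, and end at the base before an annotated start. For Hnrnpul1 that start lies inside the range of the gene given above, which reaches further upstream. Capitals mark CCAAT or ATTGG.
Hnrnpab, chr11:51606882-51607131, minus strand: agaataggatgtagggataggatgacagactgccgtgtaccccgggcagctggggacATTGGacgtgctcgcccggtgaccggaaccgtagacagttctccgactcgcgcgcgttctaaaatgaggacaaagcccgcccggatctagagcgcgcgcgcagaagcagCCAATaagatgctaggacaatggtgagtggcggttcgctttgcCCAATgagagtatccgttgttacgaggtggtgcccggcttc
Hnrnpr, chr4:136310692-136310941, plus strand: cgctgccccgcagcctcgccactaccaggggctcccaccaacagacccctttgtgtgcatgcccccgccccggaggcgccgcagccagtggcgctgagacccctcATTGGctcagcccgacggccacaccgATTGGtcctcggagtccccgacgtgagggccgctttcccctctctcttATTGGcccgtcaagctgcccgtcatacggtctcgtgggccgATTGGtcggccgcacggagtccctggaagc
Hnrnpul1, chr7:25754760-25755009, minus strand: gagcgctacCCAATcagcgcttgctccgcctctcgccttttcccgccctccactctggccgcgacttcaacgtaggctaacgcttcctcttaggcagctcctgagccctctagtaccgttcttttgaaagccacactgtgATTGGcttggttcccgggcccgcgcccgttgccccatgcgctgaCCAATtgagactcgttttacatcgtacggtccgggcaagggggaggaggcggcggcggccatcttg
Srsf6, chr2:162931258-162931507, plus strand: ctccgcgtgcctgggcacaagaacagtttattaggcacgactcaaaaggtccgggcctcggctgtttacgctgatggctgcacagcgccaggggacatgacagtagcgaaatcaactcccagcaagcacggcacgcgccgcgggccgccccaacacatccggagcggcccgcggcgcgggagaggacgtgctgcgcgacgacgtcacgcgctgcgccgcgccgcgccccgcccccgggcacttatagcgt
The window of Hnrnpr holds 4 matches, those of Hnrnpab and Hnrnpul1 hold 3 each, and that of Srsf6 holds 0. These windows are examples, and whether matches bear on the changes was not tested. A match of letters is not evidence of binding.

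To see whether the rest of the splicing machinery moved alike, further lists of genes were counted in the same fit, to be read beside the 12% of all genes and 15.8% of well-counted genes that rose. Of 26 SR-related proteins and SR kinases tested, 7 rose (26.9%) and 19 did not pass (median log2 fold change 0.09). Tnpo3, the importer that carries SR proteins into the nucleus, rose by 0.51 (SE 0.05, adjusted P = 6.5e-04), and the SR kinase gene Srpk1 by 0.22 (SE 0.06, adjusted P = 0.0294). Srek1 (0.23) and its partner Srek1ip1 (0.78) rose as well. Of 22 hnRNP-like genes with other symbols, 10 rose (45.5%) and 12 did not pass (median 0.14), led by Khsrp (0.58), the polypyrimidine tract binding gene Ptbp1 (0.38), Matr3 (0.30) and Cirbp (0.26). Both medians lay between that of all genes and those of the SR and hnRNP families.

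Of 42 core spliceosome genes, 6 rose (14.3%, near the share of all genes), 1 fell (Prpf19, -0.18) and 35 did not pass (median 0.09). The largest rises were in Snrpe (0.28), Snrpf (0.28), Sf3b1 (0.24) and Sf3a3 (0.21). By direction alone the list leaned upward, with 33 of 42 genes above 0, beside 6795 of all 13669. Without overlap of the groups, 17 were higher and 3 lower in KD, beside 21.0% and 20.6% of all genes. Their summed level was 5804 to 6000 TPM in WT and 6413 to 6795 TPM in KD. Among 20 neural and tissue splicing regulators 5 rose (25.0%), namely Khdrbs2 (0.42), Srrm4 (0.28), Celf2 (0.22), Celf1 (0.21) and the barely counted Mbnl3 (1.08), and Celf6 fell (-0.47). Of 10 factors of nonsense-mediated decay 3 rose (30.0%), Upf1 (0.32), Upf3a (0.28) and Smg6 (0.23). Arginine methyltransferases, which modify hnRNPs, and hnRNP importers had 1 rise in 11 genes (9.09%), in the importer gene Tnpo1 (0.34), and 3 falls (27.3%, beside 11.9% of all genes and 16.8% of well-counted genes), in Prmt7 (-0.25), Prmt2 (-0.21) and Prmt5 (-0.14).

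**Figure D5:**
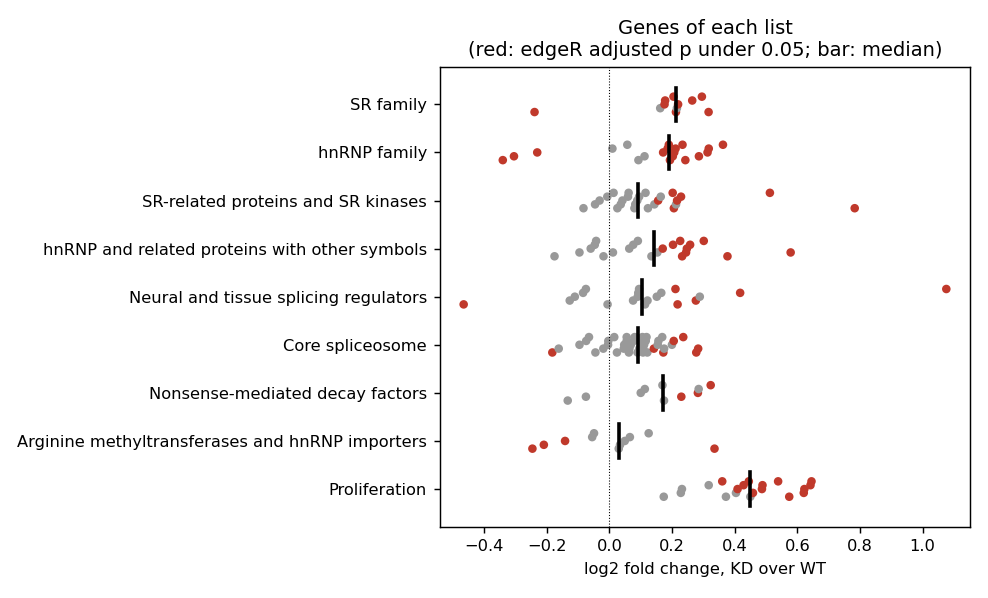
Log2 fold change, KD over WT, of each gene (point) of the SR and hnRNP families and of the other lists (vertical axis); red points passed the edgeR threshold and black bars are list medians. The medians of the SR and hnRNP families, at 0.21 and 0.19, lie above those of the other RNA-processing lists (0.03 to 0.17), and that of the proliferation list is at 0.45.

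Markers of proliferation and of intermediate progenitors moved with the SR and hnRNP genes. Of 20 proliferation genes 13 rose (65.0%, median 0.45), beside 12% of all genes and 15.8% of well-counted genes. Among them were Mki67 (0.65), Mcm6 (0.64), Mcm7 (0.62) and Top2a (0.62). The summed level of the list was 566 to 636 TPM in WT and 770 to 991 TPM in KD. All 4 intermediate progenitor markers rose, with sums of 43.0 to 55.2 TPM in WT and 97.3 to 122 TPM in KD. Radial glia markers, 2 of 10 of which rose (20.0%, near the share of well-counted genes), summed to 3105 to 3497 TPM in WT and 3557 to 3837 TPM in KD. The gap between these ranges is narrow. On log2(TPM + 1) the median change of all genes was itself 0.05, so a radial glia rise cannot be told from that general shift. KD replicate 1 had the highest sum for the hnRNP genes, for proliferation and for intermediate progenitors. The same library was also highest for the SR genes, for core spliceosome genes and for radial glia, GABAergic neuron and astrocyte markers. It was not the highest for neuron or oligodendrocyte lineage markers. The part of cell make-up or proliferation in the SR and hnRNP changes was not tested.

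For neuron, GABAergic neuron, oligodendrocyte lineage and astrocyte markers the WT and KD sums overlapped. Neuron markers, 2 of 7 of which rose (28.6%), summed to 2620 to 3250 TPM in WT and 2879 to 3392 TPM in KD. GABAergic neuron markers (1 of 5 rose, 20.0%) reached 368 to 531 and 410 to 610.0 TPM. Oligodendrocyte lineage markers (1 of 4 fell, 25.0%) reached 303 to 408 and 260.0 to 328 TPM, and astrocyte markers 51.6 to 59.6 and 50.2 to 61.2 TPM. Of all genes 12% rose and 11.9% fell, and of well-counted genes 15.8% and 16.8%. With lists this short, such shares cannot be told from those. Endothelial, microglia, pericyte, meningeal fibroblast and erythroid lists each summed to at most 5.88 TPM in any library. The endothelial markers Cldn5, Pecam1, Kdr and Flt1 and the microglia markers Csf1r, Cx3cr1 and P2ry12 were under 1 TPM throughout, and the pericyte sum was 2.26 to 3.30 TPM in WT and 3.53 to 4.13 TPM in KD, where Pdgfrb rose (0.72). Markers of the neural lineages of the labelled tissue were thus present, glial ones included, and those of vascular, meningeal, microglial and blood cells were near 0.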

How the data were processed

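Each library was made from mRNA of cultured cortical cells of stage E13.5 and sequenced on the DNBSEQ platform. The submitters' processing notes name GRCm38/mm10, HISAT2 2.2.1, Bowtie2 2.4.5 and RSEM 1.3.1, with no role or order. The deposited table gives estimated counts, of which 89.3% to 89.9% per library were whole (within 0.000001), and TPM that the authors scaled to 1000000 per library. It also holds 6 FPKM columns and 6 group averages, which were not used.

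After rounding, the estimated counts entered edgeR 4.0.16 under R 4.3.3 (filterByExpr with a minimum count of 10, TMM, quasi-likelihood F-test, Benjamini-Hochberg adjustment), although the design had assumed whole counts. SE was obtained as the size of the log2 fold change over the root of F. P values measure the spread between these libraries, and the replicates of a group differed by 4.43 to 8.66 times sampling noise (chi-square per degree of freedom), so all 6 were counted. Alternatives used limma 3.58.1 and DESeq2 1.42.0.

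The deviations of same-numbered WT and KD libraries from their group means correlated over genes (0.351, 0.320 and 0.178, against -0.276 to -0.0180 for other pairs). The libraries thus look paired by number, though no label gives the reason. The unpaired fit was kept as the principal one and the replicate block as an alternative. The calls, SE and adjusted P values therefore ignore that pairing unless the block is named, as do the fits with a library left out.

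All members are named, and from each of 7 lists of related genes up to 4 genes, the largest changes past the threshold at a mean of 5 CPM or more. A further 11 lists held cell type markers. Mbnl3, Celf1 and Prpf19 were named after their values were seen. The members, lists and tests were chosen with earlier results of these data known. Transcript classes are from GENCODE M21 and gene positions and promoters from RefSeq (GRCm38.p6).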

Additional observations from a re-analysis of the deposited data

How the results depend on the processing

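The number of genes called, the calls and medians of both families and the fold change of each member were recomputed under 15 alternatives, and the summed TPM under 1. The other lists, the ratios and the annotation counts had none. DESeq2 size factors, no filter, DESeq2's Wald test and limma-voom kept all counts within 1.5 times and no member was past the threshold in the opposite direction under any alternative. The median of all genes moved by at most 0.05 (on TPM). Of the genes called, 50.2% were higher, a share that ran from 43.0% (upper quartile) to 57.9% (library totals) and was 66.7% on log2(TPM + 1), with 3153 genes called.

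With the replicate block, 5009 genes were called in place of 3277, and the changed calls of members are given with the counts of the families. Leaving out each library in turn gave 1576 to 3195 genes called, 4 to 9 SR genes higher, 0 to 1 SR genes lower, 6 to 13 hnRNP genes higher and 2 to 3 hnRNP genes lower. Srsf12 is the SR gene lost, also on log2(TPM + 1), where 0 SR genes were lower by limma, and its adjusted P lay between 0.00853 and 0.199 over the alternatives. The SR median lay between 0.20 and 0.23 without 1 library, and was 0.19 with upper quartile scaling, 0.23 with library totals and 0.25 on log2(TPM + 1), where the hnRNP median was also 0.25. The SR minus hnRNP median of 0.02 lay between -0.0078 and 0.0426 without 1 library, and turned to -0.0009 without WT replicate 1 and to -0.0078 without KD replicate 3. Hnrnpa0 turned to -0.0109 with upper quartile scaling and lay between -0.0435 and 0.0548 without 1 library, below 0 without WT replicate 3 or KD replicate 1.

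Without both libraries numbered 2, 2 libraries a group remained, 228 genes were called (59.2% higher) and edgeR called 0 members of either family in either direction. At an unadjusted p of 0.05, edgeR called 21 members higher and 4 lower, and limma-voom 21 and 4, also with 0 after adjustment. The share of all genes past that unadjusted p was not taken, so these counts cannot be set against a background. The medians there were 0.21 (SR) and 0.18 (hnRNP). Summed TPM without the 6 members with fractional counts gave ratios of 1.19 and 1.17. With 3 libraries a group and changes under 1.3-fold, the calls of single members are less firm than the direction of the families.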
